A study of Mus musculus with 6 samples.

Results

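The endothelin system was followed through 7 genes: the ligands Edn1, Edn2 and Edn3, the receptors Ednra and Ednrb, and the converting enzymes Ece1 and Ece2. They were chosen by gene name, with Edn1 as the starting point because it was among the genes called lower with BMP2 in these same samples (limma adjusted p = 0.0483, threshold 0.05). All 7 were found among the 21115 probe sets, each probe set standing for 1 numbered gene. The samples were primary hepatocytes of C57BL/6 mice in 2 groups, 3 BMP2 samples, which received the recombinant protein at 50 ng/ml over 24 hours, and 3 control samples cultured without it, from 3 mice. Both groups were plated on collagen, attached in medium with serum, and were changed to serum-free medium with dexamethasone and later to serum-free medium without it, per the labels' protocols. Expression was read on an Affymetrix array as log2 values.

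Endothelins are short vasoactive peptides. Each is cut from a larger precursor, first by furin-type proteases and then by an endothelin-converting enzyme, and acts on 2 G protein-coupled receptors, the A type (Ednra) and the B type (Ednrb). In the liver, endothelin-1, the product of Edn1, is known as a peptide that contracts stellate cells and raises resistance in the sinusoids, and endothelial cells are its best known source. BMP2, a growth factor of the TGF-beta family, acts on target genes by way of SMAD proteins.

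The stimulation was visible in all 6 BMP-responsive genes used as a check, which rose by 0.24 (Smad6) to 5.62 (Hamp) on the log2 scale. All 6 were called higher, against 0.616% of all probe sets, but they were chosen with earlier results of these data known. Medians of the 6 samples lay between 6.80 and 6.81. The 10 hepatocyte markers all lay above the background level of 6.65, taken as the 95th percentile of the mean levels of 1338 chemosensory receptor genes. Of 6 Kupffer cell markers 0 lay above it, of 9 stellate cell markers 3, of 11 sinusoidal endothelial markers 8 and of 6 cholangiocyte markers 4. Of all 21115 probe sets 13436 lay above it, so these counts alone do not show which cell types were present. The endothelial markers averaged 6.73 to 6.79 in BMP2 samples and 6.72 to 6.76 in control samples. Among them Clec4g, Gpr182 and Tek were not above background in either group, and Cdh5, an endothelial cadherin, had the highest mean (7.21 in BMP2 and 7.10 in control samples).

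The bases just before the annotated starts of the 2 members that moved with BMP2 are shown, because short motifs bound by SMAD factors can be read from them. Each window holds 250 bases before a RefSeq start on GRCm38.p6, on the plus strand, printed 5′ to 3′. Capitals mark any match to 7 searched motifs on either strand. The SMAD box was searched as GTCT. The GC box of BMP response elements, another SMAD motif, was searched as GGCGCC. The site of AP-1 (Jun and Fos dimers) was searched as TGANTCA, and that of GATA factors by the letters of their name. The E-box of helix-loop-helix factors was searched as CANNTG, and its hits may overlap those of the hypoxia element, whose core was searched as ACGTG. The last of them, the TATA box that places the start of transcription, was searched as TATAAA. The Edn1 window lies at chr13:42301226-42301475 and the window before the most upstream of the 4 Ece1 starts at chr4:137861987-137862236.
Edn1: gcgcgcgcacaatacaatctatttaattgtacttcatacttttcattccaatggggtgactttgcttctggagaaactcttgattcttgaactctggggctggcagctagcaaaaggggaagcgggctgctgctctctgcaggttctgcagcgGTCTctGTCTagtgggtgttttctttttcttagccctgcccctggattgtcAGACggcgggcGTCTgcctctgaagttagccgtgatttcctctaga
Ece1: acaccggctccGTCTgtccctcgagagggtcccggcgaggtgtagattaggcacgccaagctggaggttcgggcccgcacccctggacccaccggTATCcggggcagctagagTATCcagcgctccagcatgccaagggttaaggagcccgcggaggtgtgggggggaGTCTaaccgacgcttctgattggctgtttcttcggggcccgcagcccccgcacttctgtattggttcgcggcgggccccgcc

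The Edn1 window held 4 matches to the SMAD box, 3 on the printed strand and 1 on the other, and no match to the other 6 motifs. Of 32851 windows of the same length 82.9% held at least 1 SMAD box match and 12.5% held 4 or more. The Ece1 window held 2 SMAD box matches and 2 GATA matches, both GATA matches on the other strand. At least 2 SMAD box matches were present in 54.9% of all windows and at least 2 GATA matches in 24.2%. Among the members that did not move, SMAD box matches numbered 3 for Edn3 and Ednra, 2 for Ednrb and 1 for Edn2 and Ece2. The GC box was found in 1 of the 10 windows of the 7 genes, before the second Ece1 start, and in 9.59% of all windows. These matches describe the letters of the windows and not binding. The start that hepatocytes use for Edn1 was not measured and may differ from the RefSeq one, so the absence of the other motifs holds for this window alone.

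Edn1, the ligand gene, was lower with BMP2. Its log2 level was 7.50, 7.35 and 7.26 in BMP2 replicates 1, 2 and 3, against 8.94, 8.90 and 8.35 in control replicates 1, 2 and 3. All BMP2 samples lay below all control samples, and in both groups the lowest value was that of replicate 3. The mean was 7.37 ± 0.12 in BMP2 samples and 8.73 ± 0.33 in control samples (SD, n = 3 each), a difference of -1.36 ± 0.18 (SE) with a 95% interval of -1.81 to -0.91, or a level 2.57-fold lower with BMP2. In the pairs of equal replicate number the difference was -1.44, -1.55 and -1.09. Only 5 of the 121 probe sets called lower had a more negative difference. Since Edn1 was picked from this comparison, these values are a description. In bulk samples, fewer cells of a type and less RNA per cell cannot be told apart.

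**Figure D1:**
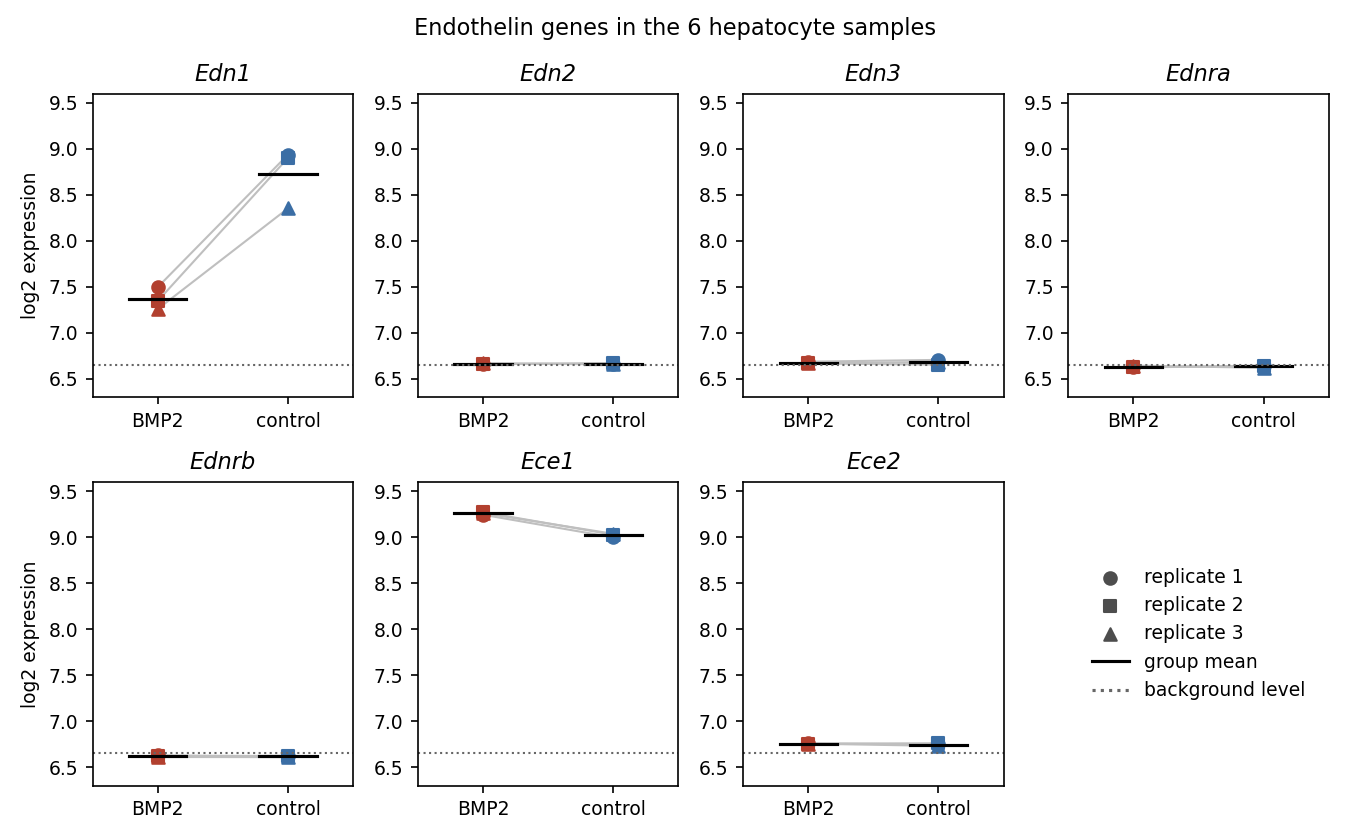
Log2 expression of the 7 endothelin genes in the 3 BMP2 and 3 control samples. Points are samples (shape gives the replicate number), grey lines join equal replicate numbers, black bars are group means and the dotted line is the background level of 6.65. Edn1 is lower and Ece1 higher with BMP2, and the other 5 genes lie close to the dotted line.

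Ece1, which encodes the endothelin-converting enzyme that releases endothelin-1 from its precursor, moved in the opposite direction. Its log2 level was 9.244, 9.273 and 9.262 in BMP2 samples, against 8.998, 9.027 and 9.037 in control samples. The groups did not overlap, and the gap between them was wider than the range within either. The mean was 9.26 ± 0.015 in BMP2 samples and 9.02 ± 0.020 in control samples (SD, n = 3 each). The difference was 0.24 ± 0.014 (SE), with a 95% interval of 0.20 to 0.27, which is a 1.18-fold higher level. The pairs differed by 0.25, 0.25 and 0.22. Ranked by the size of the increase, Ece1 stood at place 367 of 21115 probe sets.

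The related enzyme gene Ece2 stood at 6.76 ± 0.0011 in BMP2 samples and 6.75 ± 0.014 in control samples (SD, n = 3 each). Its difference was 0.010 ± 0.0095 (SE), and the 2 groups overlapped. Both group means lay just above the background level.

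The other 2 ligand genes also lay just above the background level. Edn2, the gene of endothelin-2, ranged from 6.66 to 6.67 in BMP2 samples and from 6.66 to 6.67 in control samples. Edn3, whose product binds the B receptor as strongly as endothelin-1 does, ranged from 6.67 to 6.69 in BMP2 samples and from 6.65 to 6.71 in control samples. Their differences were 0.0007 ± 0.0076 for Edn2 and -0.0075 ± 0.016 for Edn3 (SE), with overlapping groups for each. Values this low are compressed by the floor of the array, so a change of a weakly expressed gene could be hidden.

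Neither receptor gene was above background in these hepatocytes. Ednra ranged from 6.62 to 6.64 in BMP2 samples and from 6.62 to 6.64 in control samples. Ednrb ranged from 6.61 to 6.63 in BMP2 samples and from 6.61 to 6.63 in control samples. The differences were -0.0029 ± 0.011 for Ednra and 0.0016 ± 0.0085 for Ednrb (SE), and both pairs of groups overlapped. The probe set of Ednra had no symbol in the platform annotation and was named through its gene number in the RefSeq table.

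**Figure D2:**
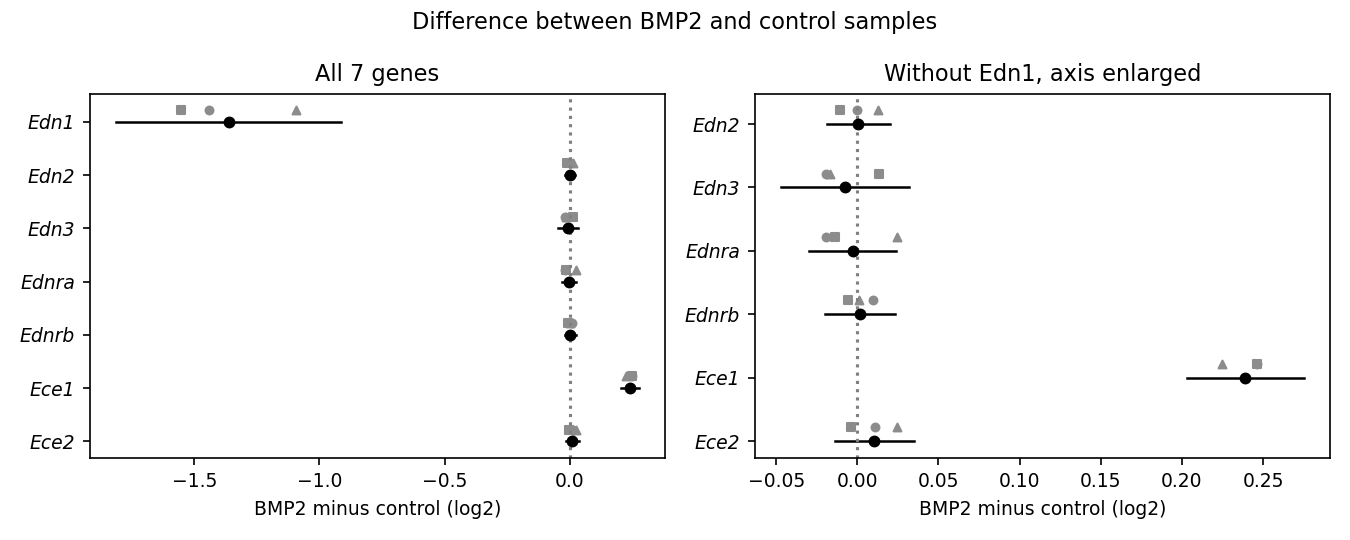
Difference between BMP2 and control means for each gene on the log2 scale, on the right without Edn1 and with an enlarged axis. Black points are differences, bars their 95% intervals, and grey symbols the differences in the 3 pairs (circle, square and triangle for replicates 1, 2 and 3). Edn1 lies at -1.36, Ece1 at 0.24 and the other 5 genes within 0.011 of 0.

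Of the 7 genes, then, 1 was called lower (Edn1), 1 was called higher (Ece1) and 5 did not pass in limma over all genes, where 1.19% of all probe sets passed (0.573% lower and 0.616% higher). The 2 that passed were also the only 2 of the 7 whose groups did not overlap, a state found in 16.7% of all probe sets. The members were chosen with this comparison known, so nothing is read from these counts. The median difference of the 7 was 0.00065, the same as over all probe sets. Among the 5 members that did not pass, 95% intervals reached from -0.047 (Edn3) to 0.035 (Ece2).

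Leaving out 1 sample at a time changed the calls more than the differences. These fits had no replicate block and left 1 sample without its pair. Over all probe sets 30 to 223 passed in them, against 251 with all 6 samples. Edn1 differed by -1.55 to -1.26 in the 6 such fits. It passed only without control replicate 3, the lowest control (adjusted p = 0.0328), and had a limma adjusted p of 0.149, 0.172 and 0.0963 without BMP2 replicates 1, 2 and 3, and of 0.119 and 0.175 without control replicates 1 and 2. Ece1 differed by 0.23 to 0.25 and passed in 5 of the 6, the exception being the fit without control replicate 2 (adjusted p = 0.0578).

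**Figure D3:**
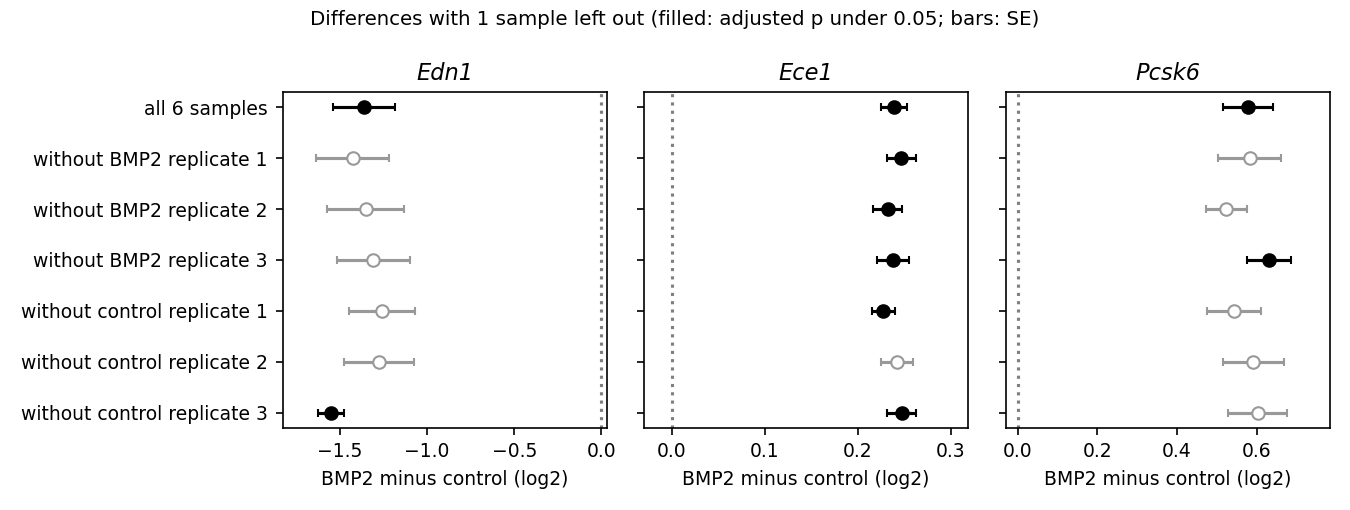
Difference between BMP2 and control means on the log2 scale for Edn1, Ece1 and the convertase gene Pcsk6, with all 6 samples and without each sample in turn. Points are differences and bars SE, with filled points for an adjusted p under 0.05 over all probe sets. Edn1 stays between -1.55 and -1.26, Ece1 between 0.23 and 0.25 and Pcsk6 between 0.52 and 0.63.

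Differences between the replicate numbers were not used to choose the genes and could be tested. The numbers were taken to stand for the mice, but the sample titles give a number and name no mouse. None of the 7 genes differed between replicate numbers in limma's moderated F test with group in the model, after Benjamini-Hochberg adjustment over all probe sets, where 0.0284% passed. None of the 7 had an unadjusted p under 0.05, against 14.8% of all probe sets, so that a count of 0 among 7 lies near the background. Edn1 had the lowest p, with means over both groups of 8.22, 8.12 and 7.80 in replicates 1, 2 and 3 (unadjusted p = 0.0873, adjusted p = 0.412). Ece1 had means of 9.12, 9.15 and 9.15 (adjusted p = 0.469).

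Around these genes, 84 others were examined in 4 lists. In the list of 9 proteases that process or break down endothelins, 1 rose and 8 did not pass, where 0.616% of all probe sets were called higher. Pcsk6, a proprotein convertase of the furin family, rose. Its log2 level was 9.20, 9.31 and 9.10 in BMP2 samples, against 8.55, 8.65 and 8.67 in control samples. The groups did not overlap, with a difference of 0.58 ± 0.06 (SE, limma adjusted p = 0.0329). When single samples were left out, Pcsk6 passed in 1 of 6 fits, that without BMP2 replicate 3 (adjusted p = 0.0354), and its highest value was 0.140 without control replicate 2.

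Furin, the convertase best known for the first cut of the endothelin precursor, differed by 0.21 ± 0.03 (SE) and did not pass (limma adjusted p = 0.0701). It had 10.94, 11.02 and 11.03 in BMP2 samples, against 10.83, 10.75 and 10.79 in control samples, so its groups did not overlap. Mme, which encodes neprilysin, a peptidase that degrades endothelins, differed by 0.10 ± 0.05 (SE, adjusted p = 0.577) with overlapping groups. The median difference of the list was 0.014, against 0.00065 over all probe sets.

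Of 27 genes of endothelin receptor signalling 0 passed in limma without the replicate block. An unadjusted p under 0.05 was found for 13 (48.1%, against 12.5% of all probe sets). Of the 27 genes 22 lay above background. The list was chosen with earlier results of these data known, so nothing is read from this share. With the replicate number as a block 4 fell and 1 rose, against 3.32% of all probe sets and 5.2% of those above background. The 4 that fell were Itpr1 and Itpr2, receptors for inositol trisphosphate that release calcium, Prkca, protein kinase C alpha, and Grk5, a kinase that desensitises G protein-coupled receptors.

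Itpr1 had 7.99, 7.98 and 7.96 in BMP2 samples, against 8.21, 8.23 and 8.12 in control samples, a difference of -0.21 (limma adjusted p = 0.0566, and 0.0491 with the block). Grk5 had 8.84, 8.86 and 8.93 in BMP2 samples, against 9.15, 9.27 and 9.39 in control samples, a difference of -0.39 (adjusted p = 0.0753, and 0.0368 with the block). Itpr1, Grk5, Itpr2 and Prkca were each lower in every BMP2 sample than in any control sample. Arrb2, of the same list, was higher in every BMP2 sample than in any control sample. It differed by 0.26 and did not pass (limma adjusted p = 0.0787, and 0.0699 with the block). Itpr2 differed by -0.14 (0.135, and 0.0317 with the block) and Prkca by -0.23 (0.168, and 0.0361 with the block). Grk2, another receptor kinase, rose with the block (0.08, adjusted p = 0.0466; 0.333 without it). Prkca and Grk2 passed in 1 of the 6 other settings with all samples, the fixed block, and not with the random block. The median difference of the 27 genes was 0.011.

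Of 21 regulators of Edn1 transcription, all above background, 0 passed in limma without the block. An unadjusted p under 0.05 was found for 8 (38.1%, against 12.5% of all probe sets). Nothing is read from this share either, since the list was chosen with earlier results known. With the block 1 rose and 1 fell, against 3.32% of all probe sets and 5.2% of those above background. Pparg, a nuclear receptor, had 9.40, 9.75 and 9.30 in BMP2 samples, against 8.07, 8.48 and 8.39 in control samples. Its groups did not overlap, and the difference of 1.17 ± 0.16 (SE) had a limma adjusted p of 0.0542, or 0.0391 with the replicate block. Nfkb1, a subunit of NF-kappa-B, differed by -0.18 (adjusted p = 0.130, and 0.0412 with the block). Nr3c1, the glucocorticoid receptor gene, differed by 0.40 ± 0.06 (SE, adjusted p = 0.0658). The median of the list was 0.059.

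Of 27 genes of other vasoactive peptides and nitric oxide 0 passed in limma without the block. An unadjusted p under 0.05 was found for 4 (14.8%, against 12.5% of all probe sets). With it Kng1, a kininogen gene, was called higher (0.23, limma adjusted p = 0.102, and 0.0170 with the block) and Nppb, which encodes brain natriuretic peptide, was called lower (-0.20, adjusted p = 0.0651, and 0.0241 with the block). Adm, the adrenomedullin gene, differed by 0.20 ± 0.03 (SE, adjusted p = 0.0530). It had 6.94, 6.93 and 6.92 in BMP2 samples, against 6.78, 6.68 and 6.74 in control samples. The median of the list was 0.0020. Over all 84 genes 27 had an unadjusted p under 0.05 (32.1%, against 12.5% of all probe sets). The 2 sets differ in level, with 69 of the 84 genes above background, against 13436 of 21115 probe sets. The unadjusted share among probe sets above background was not computed, and the part of level was not tested. The lists were also chosen with earlier results of these data known, so nothing is read from this count. Of the 84, 1.19% passed without the block, the same share as over all probe sets. With it 11.9% passed, against 3.32% of all probe sets and 5.2% of those above background.

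**Figure D4:**
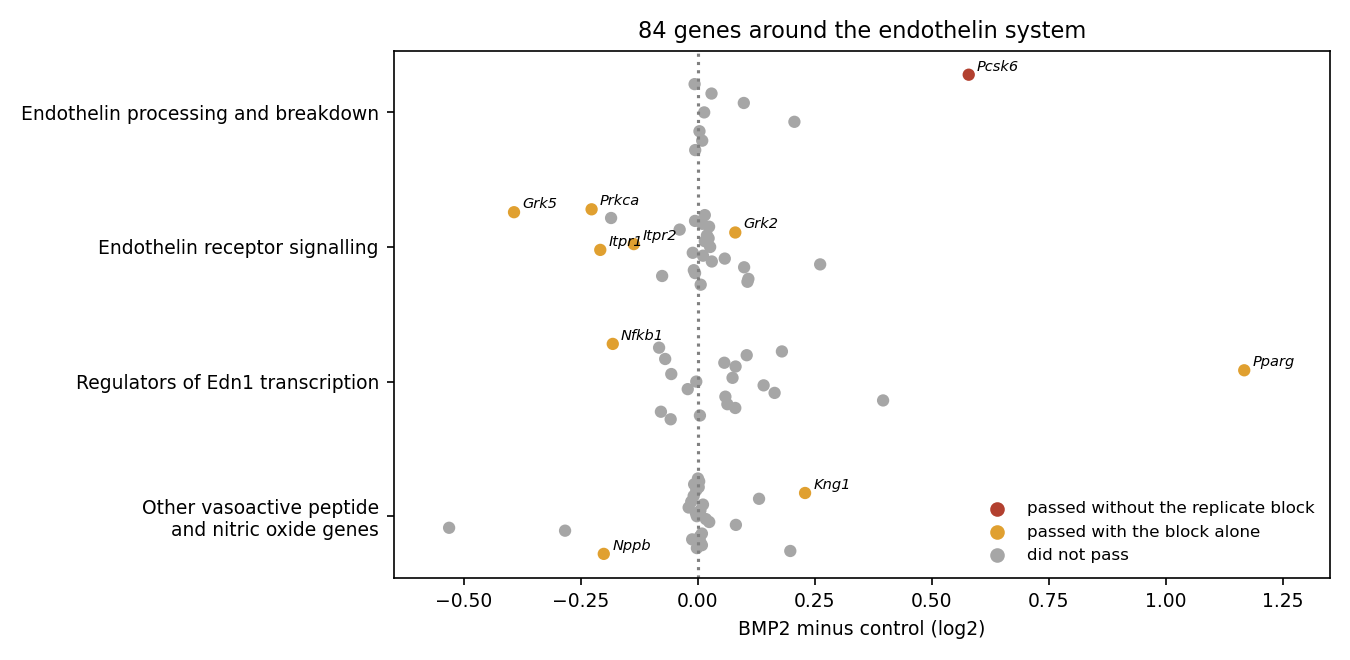
Differences between BMP2 and control means on the log2 scale for 84 genes in 4 lists, 1 point a gene and spread vertically at random within a list. Red marks the 1 gene that passed without the replicate block (Pcsk6, 0.58), orange the 9 that passed with the block alone, and grey the rest.

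The genes whose pattern was most like that of Edn1 were sought among 131 named probe sets that ranged over at least 1 on the log2 scale. By Pearson's r over the 6 samples the closest were Cldn2, which encodes the tight junction protein claudin-2 (0.994), P2ry14, a receptor for UDP-sugars (0.986), Guca2b, which encodes uroguanylin (0.983), Pklr, which encodes liver pyruvate kinase (0.971), and Lhfp (0.971). The 6 samples form 2 groups that stand apart, so r mostly follows the difference between groups. Their differences lay between -1.12 (P2ry14) and -0.68 (Pklr). The limma adjusted p was 0.0320 for Cldn2, 0.0274 for P2ry14 and 0.0233 for Lhfp, while Guca2b (0.0744) and Pklr (0.145) did not pass. The groups did not overlap in any of the 5, which follows from their choice by likeness to Edn1. In Cldn2, P2ry14, Guca2b, Pklr and Lhfp the lowest control was replicate 3, as in Edn1, which largely follows from the same choice.

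**Figure D5:**
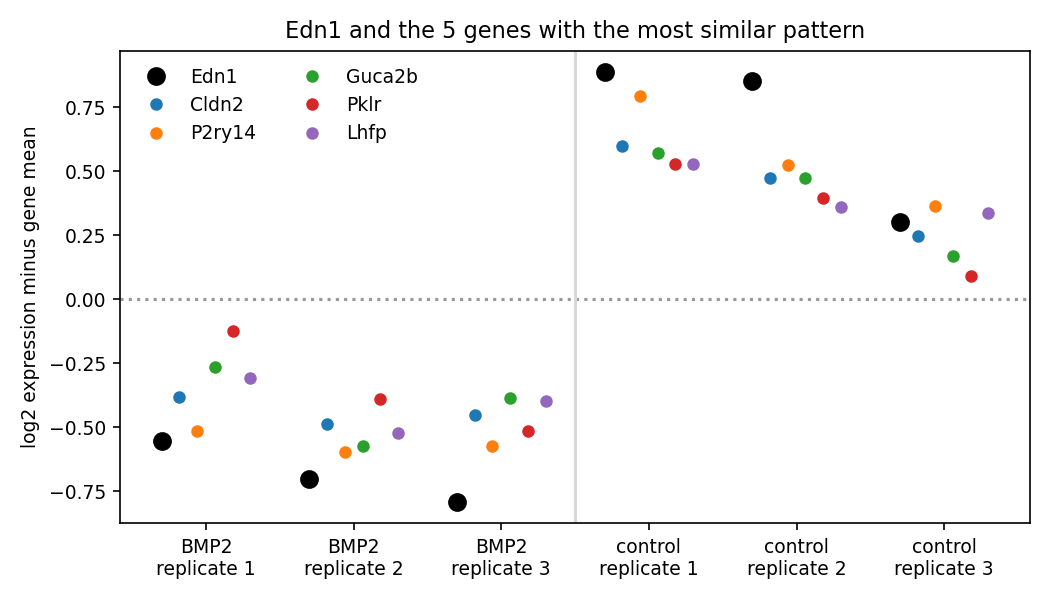
Log2 expression minus the mean of each gene over the 6 samples, for Edn1 (large black points) and the 5 genes with the highest Pearson's r to it. The 3 BMP2 samples lie below 0 and the 3 control samples above 0 for each of the 6 genes.

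Markers of liver cell types were read beside these values. Of the 10 hepatocyte markers 8 had a positive difference and the median difference was 0.18. In 6 of them the groups did not overlap, against 16.7% of all probe sets. Hnf4a, a liver transcription factor gene, rose by 0.82 ± 0.06 (SE, limma adjusted p = 0.00968). For Ttr, which encodes the carrier protein transthyretin, the difference was 0.68 ± 0.11 (SE, adjusted p = 0.0725, and 0.0166 with the block), and the other 8 did not pass without the block or with it. None of 11 sinusoidal endothelial, 9 stellate, 6 cholangiocyte or 6 Kupffer cell markers passed in limma without the block. Of them 0, 1, 3 and 0 had an unadjusted p under 0.05, against 12.5% of all probe sets. The endothelial list had a median difference of 0.012. Its sample means of 6.72 to 6.79 lay close to the background level, where a fall could be hidden. In the stellate list Acta2, smooth muscle actin, differed by -0.49 ± 0.13 (SE, adjusted p = 0.197), while the other 2 members above background, Ngfr (0.024) and Colec11 (-0.0088), lay close to 0. Des, Lrat, Reln and Pdgfrb were not above background in either group. The stellate list as a whole had 5 positive and 4 negative differences with a median of 0.0023. In the cholangiocyte list Krt19 differed by -0.51 ± 0.08 (SE, adjusted p = 0.0725) and Spp1 by -0.55 ± 0.12 (SE, adjusted p = 0.135), while Sox9 differed by 0.46 (adjusted p = 0.144, and 0.0389 with the block). The part of these markers, hepatocyte markers included, in the lower level of Edn1 was not tested.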

How the data were processed

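The authors deposited log2 values of expression, which were made with RMA (robust multi-array averaging) per the submitters' processing notes. Its version, the probe grouping and any filter are not given in the sources used here. The deposited values were used without further normalization. Of 21115 probe sets, numbered by gene, 20405 had a symbol in the platform annotation and 20932 once RefSeq gene numbers (GRCm38.p6) were used. Precision rested on 3 samples a group and on variances that limma draws in part from all probe sets.

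The comparison of BMP2 with control used limma 3.58.1 under R 4.3.3 (eBayes after lmFit, two-sided, Benjamini-Hochberg over all probe sets, threshold 0.05). Every adjusted p and SE came from such fits. Samples of equal replicate number deviated together from their group means (r = 0.48, 0.577 and 0.606), and the series text names 3 mice, so the numbers were taken as pairs and a blocked model was fitted beside the main one. The members, lists and tests were chosen with earlier results of these data known. The rule named all 7 members, each list gene past the threshold or otherwise the 2 with the smallest p, and the 5 genes most like Edn1. The other genes named, among them Itpr2, Prkca, Grk2, Arrb2, Nfkb1, Kng1, Mme and single cell type markers, were chosen after their values were seen. The fit was tested on simulated data. The settings tried were a replicate block (fixed or random), a filter on dim probe sets, an intensity trend with robust estimation, renewed quantile normalization, array weights and leaving out each sample. A block without both samples of a number was added after the data were seen. Promoter windows came from RefSeq.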

Additional observations from a re-analysis of the deposited data

How the results depend on the processing

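Edn1 stayed lower and Ece1 and Pcsk6 stayed higher with BMP2 under every alternative. With all samples, the replicate blocks, the filter and the trend cannot change a difference between group means, so the direction there was fixed. Edn1 was also picked from this comparison. With all samples, each of the 3 passed under all 6 other settings (limma adjusted p of 0.00404 to 0.0484 for Edn1, 0.00166 to 0.0316 for Ece1 and 0.00467 to 0.0449 for Pcsk6). All probe sets called numbered 251 at first, 702 with the fixed and 700 with the random replicate block. The number was 416 without dim probe sets, 468 with an intensity trend, 283 after renewed quantile normalization and 403 with array weights. Genes of the 4 related lists called numbered 1 at first, 10 with the fixed and 15 with the random block, 9 without dim probe sets, 9 with the trend, 5 after renewed quantile normalization and 7 with array weights. Without 1 sample, 30 to 223 probe sets and 0 to 2 related genes were called, Edn1 had an adjusted p of 0.0328 to 0.175 at differences of -1.55 to -1.26, and 0 or 1 of the other 6 members passed. With the replicate block and both samples of a number left out, which leaves 2 pairs, 0 probe sets, 0 related genes and 0 members passed, and Edn1 differed by -1.32, -1.27 and -1.50 (adjusted p 0.184, 0.225 and 0.0723). The replicate block changed the call of no member. Probe sets that differed between replicate numbers counted 6 at first, 15 without dim probe sets, 278 with the trend, and 0 after quantile normalization, with array weights or without any 1 number, and 0 of the 7 members passed in each. The causes were not tested. The number of arrays and the floor near 6.65 limit what can be seen for Edn2, Edn3, Ednra, Ednrb and Ece2.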
